A study of Mus musculus with 36 samples.

Results

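TFIID and SAGA subunit genes were examined for the presence of the TATA-binding protein TBP itself on chromatin. The set holds 10 genes, of 49980 genes with coordinates in the RefSeq gene table (GRCm38.p6, which mm10 follows) and of 21900 protein-coding ones. It comprises the TFIID subunit genes Tbp, Taf7, Taf10, Taf4, Taf8 and Taf13 and the SAGA subunit genes Taf6l, Tada3, Usp22 and Eny2, and it includes both genes that the study deleted. Each gene was taken at its mm10 position, and a gene was said to have a summit when a TBP peak summit lay within 500 bp of either of its ends. The genes were chosen by their role and by the summit calls and scores of these TBP lists, so the counts and scores at them are descriptions, and no test of them is given.

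TBP was profiled by CUT&RUN, in which a nuclease tethered to an antibody cuts out the DNA around the bound protein, in 2 mouse embryonic stem cell lines. RT7 4-OHT and RT7 EtOH cells have the genotype R26CreERT2/+;Taf7flox/flox, and RT10 4-OHT and RT10 EtOH cells have R26CreERT2/+;Taf10flox/flox. All 4 groups therefore carry floxed alleles and the Cre recombinase that 4-hydroxytamoxifen (4-OHT) activates, were grown with leukaemia inhibitory factor, CHIR99021 and PD0325901, and received 4-OHT or ethanol (EtOH) from day 1 to day 3. The labels do not say whether a line is a single clone. Each group has 2 TBP libraries and 1 IgG control library but only 1 list of summits, so no value has a replicate error. The lists held 1379 summits in RT7 4-OHT, 2666 in RT7 EtOH, 2188 in RT10 4-OHT and 3102 in RT10 EtOH, the read depth behind them is unknown, and a missing summit shows only that no peak passed the authors' threshold. Scores are −log10 q-values given by the authors' peak caller, and they are used to place a summit within its own list. Of 10 embryonic stem cell marker genes, 4 had a summit in RT7 4-OHT, 6 in RT7 EtOH, 4 in RT10 4-OHT and 7 in RT10 EtOH. Over all protein-coding genes the shares with a summit were 2.74%, 5.32%, 3.87% and 5.96% in that order. Nanog had one in every list, whereas Pou5f1, Klf4 and Esrrb had none. Sox2 had one in RT10 EtOH alone, with a score of 1.70, and 96.8% of that list scored higher. Of 6 fibroblast markers Fn1 had one in both EtOH lists and the other 5 had none. These summits are TBP peaks and do not measure expression.

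TFIID is the general transcription factor that recognises promoters of RNA polymerase II. It is built from TBP, which binds and bends the TATA element, and TBP-associated factors (TAFs), many of which pair through histone folds. SAGA is a coactivator that acetylates histones and removes ubiquitin from histone H2B. TAF10 is shared by both complexes and pairs with TAF8 or TAF3 in TFIID and with SUPT7L in SAGA, whereas TAF7 belongs to TFIID, where it contacts TAF1. RT10 cells can thus lose a subunit of both complexes and RT7 cells a subunit of TFIID.

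The stretches of DNA before the annotated start sites of the subunit genes are shown because they carry the promoter letters of genes with and without a TBP summit. RefSeq promoter windows, which run from 250 bases before to 50 bases after a start site, were matched for 7 of the 10 genes. Taf7, Usp22 and Eny2 had no entry in the table. The last 120 bases before the start site are printed 5′ to 3′ on the strand of the gene, with every match to TATAAA (the TATA element), CCAAT (the NF-Y box), GGGCGG (a GC box), CCGGAAG (an ETS-type element) or GCCATNTTG (a YY1-type element), on either strand, in capitals.
Taf13 (chr3:108571579-108571698, + strand): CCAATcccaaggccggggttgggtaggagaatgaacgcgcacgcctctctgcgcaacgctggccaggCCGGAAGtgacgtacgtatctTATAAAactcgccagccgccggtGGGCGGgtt
Tada3 (chr6:113377839-113377958, - strand): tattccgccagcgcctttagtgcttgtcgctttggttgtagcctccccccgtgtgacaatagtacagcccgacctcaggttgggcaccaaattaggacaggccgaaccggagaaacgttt
Taf6l (chr19:8786317-8786436, - strand): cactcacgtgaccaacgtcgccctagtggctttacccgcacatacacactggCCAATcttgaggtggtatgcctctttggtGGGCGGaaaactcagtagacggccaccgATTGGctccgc
Taf8 (chr17:47502292-47502411, - strand): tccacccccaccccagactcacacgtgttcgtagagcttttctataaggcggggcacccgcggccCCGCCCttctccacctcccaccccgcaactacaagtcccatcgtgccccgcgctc
Taf4 (chr2:179976647-179976766, - strand): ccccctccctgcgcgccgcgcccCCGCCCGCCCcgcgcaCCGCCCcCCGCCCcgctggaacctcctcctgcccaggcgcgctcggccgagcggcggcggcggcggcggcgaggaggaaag
Taf10 (chr7:105744339-105744458, - strand): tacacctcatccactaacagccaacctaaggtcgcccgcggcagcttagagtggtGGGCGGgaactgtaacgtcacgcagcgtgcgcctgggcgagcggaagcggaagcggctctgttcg
Tbp (chr17:15499768-15499887, + strand): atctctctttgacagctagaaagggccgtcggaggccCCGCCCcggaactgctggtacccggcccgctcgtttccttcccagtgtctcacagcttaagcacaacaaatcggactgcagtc
The coordinates are those of GRCm38.p6. In these stretches Taf13 had the single TATAAA, beside a CCAAT box, an ETS-type element and a GC box. Tada3 had none of the 5 motifs, Taf6l had a GC box and CCAAT boxes, and Taf8, Taf4, Taf10 and Tbp had GC boxes alone. The start sites of Taf6l, Taf8 and Taf10 lie inside the gene coordinates used for the summits, so part of their printed stretches does too.

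The TATAAA of Taf13 ran from 32 to 27 bases before the start site, with the start base counted as 0. TATAAA was found on either strand in 12.6% of the 21263 windows of protein-coding genes, in 13.6% of all 32851 windows, and in 18% of the 460 windows of protein-coding genes that had a summit in all 4 lists. GGGCGG was present in the windows of 6 of the 7 genes, with 6 matches at Taf4 of which 1 pair overlapped, against 46.2% of protein-coding windows and 66.7% of those with a summit in all 4 lists. CCAAT was present at Taf4, Taf13 and Taf6l, against 38.2% and 52.2% of the same windows. CCGGAAG was present at Taf13 and, on the opposite strand from the start base onward, at Tada3, against 11.6% and 14.6%. GCCATNTTG was present downstream of the start site of Taf8, against 2.85% and 6.3%. The GC content of the windows lay between 53.3% at Tbp and 77.3% at Taf4, where the median was 56.3% over protein-coding windows and 60% over those with a summit in all 4 lists. CpG dinucleotides numbered 15 at Taf6l, 17 at Tbp, 19 at Taf8 and at Tada3, 20 at Taf13, 27 at Taf10 and 45 at Taf4, against medians of 13 and 21. A match gives only the letters in the window and says nothing of a bound factor.

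TBP summits were found at 7 of the 10 genes in at least 1 list, and Tbp, Taf7 and Taf10 had none in any list. By list, 2 genes had a summit in RT7 4-OHT and 7 in RT7 EtOH, and 4 had one in RT10 4-OHT and 5 in RT10 EtOH. Over all protein-coding genes the shares with a summit were 2.74% in RT7 4-OHT, 5.32% in RT7 EtOH, 3.87% in RT10 4-OHT and 5.96% in RT10 EtOH, and 7.84% had one in at least 1 list. Nothing is read from the difference between the members and these shares, since the members were listed with their summits known. The 4 lists differ in length, and with each shortened to its highest scores at the length of the RT7 4-OHT list the counts were 2 in RT7 4-OHT and 4 to 5 in RT7 EtOH, by whether tied scores at the limit were taken, and 3 in RT10 4-OHT and 3 in RT10 EtOH. A minimum score of 10 left 1 gene in RT7 4-OHT, 2 in RT7 EtOH, 2 in RT10 4-OHT and 2 in RT10 EtOH. The shares of protein-coding genes given above are those of the full lists and do not apply to the shortened or filtered ones.

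**Figure D1:**
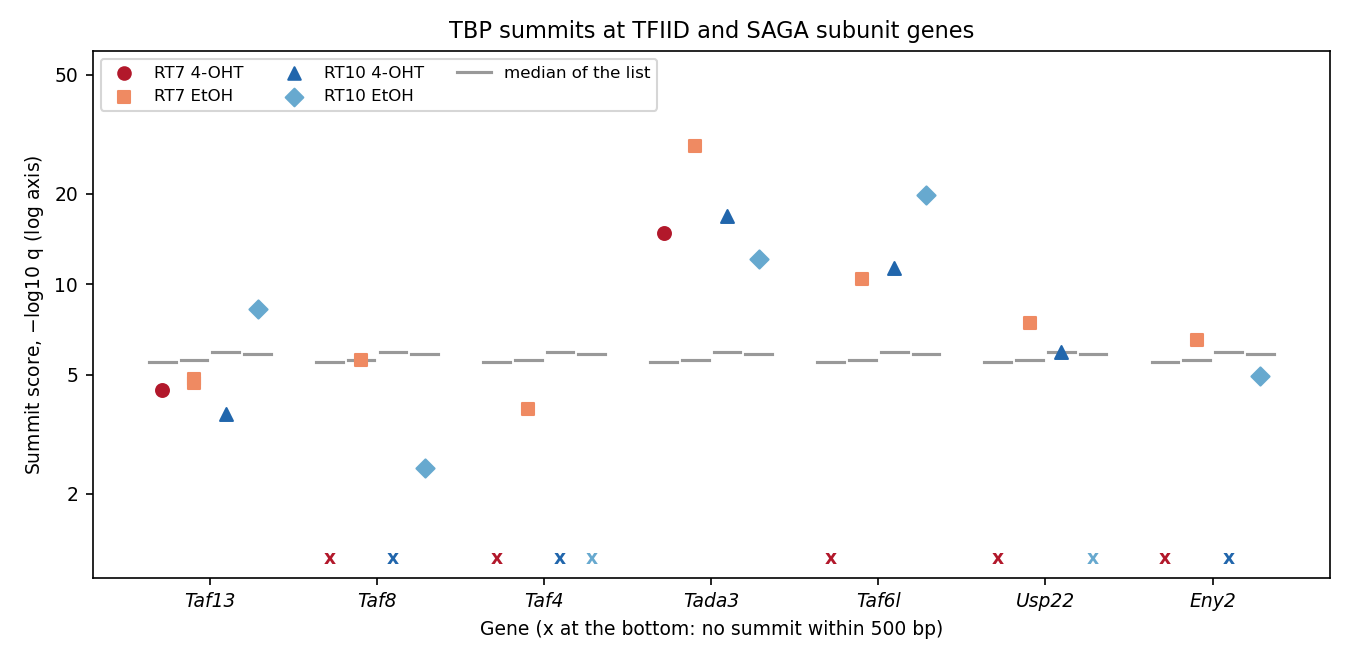
TBP summit scores at the 7 subunit genes with a summit, as −log10 q on a log axis, by list. Each point is 1 summit, grey lines are the medians of the lists, and a coloured x marks a list with no summit. Tada3 lies above the median in all 4 lists (12.1 to 28.9), and Taf13 is the other gene with a summit in RT7 4-OHT.

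The deleted genes had no TBP summit near their own ends in any group, EtOH cells included. Taf7 (chromosome 18, 37640491 to 37644204) lay 1080 kb from the nearest summit in RT7 4-OHT, 730 kb in RT7 EtOH, 1081 kb in RT10 4-OHT and 742.4 kb in RT10 EtOH. Taf10 (chromosome 7, 105742894 to 105744375) lay 3846 kb from the nearest summit in RT7 4-OHT, 3532 kb in RT7 EtOH, 3837 kb in RT10 4-OHT and 1524 kb in RT10 EtOH. The lists thus hold no summit that could show the deletion at either gene. Tbp (chromosome 17, 15499888 to 15517427), the gene of the profiled protein, lay 1816 kb from the nearest summit in RT7 4-OHT, RT7 EtOH and RT10 EtOH and 291.6 kb in RT10 4-OHT. That distance in the first 3 of these lists was to a single site near Gm24867, where their summits lay within 87 bp of each other. RT10 4-OHT also had a summit at that site, within 77 bp of theirs, besides its summit nearer to Tbp.

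**Figure D2:**
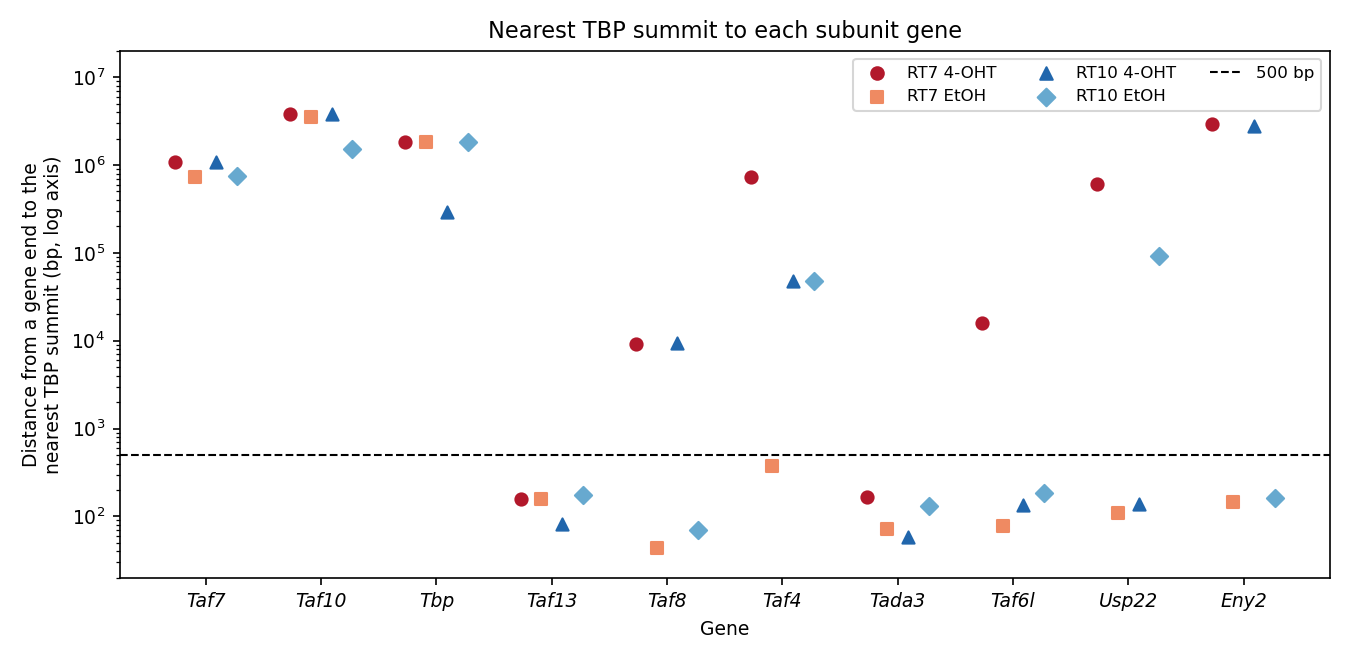
Distance from the nearer end of each of the 10 genes to the nearest TBP summit, in bp on a log axis, by list, with the 500 bp limit dashed. Taf7, Taf10 and Tbp lie at 291.6 kb or more in every list, and no gene falls between 372 and 9253 bp.

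No summit lay close to the limit of 500 bp. The farthest summit inside it was that of Taf4 in RT7 EtOH, at 372 bp, and the nearest outside it was 9253 bp from Taf8 in RT7 4-OHT. Of the 19 summits at the 7 genes, 18 lay within 200 bp of the gene's end. All 15 summits at the 5 genes of known strand lay at the 5′ end, and none of the 10 genes had a summit deeper in its body. The matching shares over all protein-coding genes were not computed, so these counts are not read as a trait of the subunit genes.

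Among the TFIID genes, Taf13, whose histone-fold protein pairs with TAF11, was the only one with a summit in all 4 lists. Taf13 (chromosome 3, 108571699 to 108582068) had a score of 4.44 in RT7 4-OHT (rank 818 of 1379), 4.83 and 4.68 at 2 summits in RT7 EtOH (best rank 1539 of 2666), 3.68 in RT10 4-OHT (rank 1476 of 2188) and 8.23 in RT10 EtOH (rank 1119 of 3102). These scores were below the median of the list in RT7 4-OHT (5.52), RT7 EtOH (5.57) and RT10 4-OHT (5.95) and above it in RT10 EtOH (5.84). The summits lay downstream of the start site, by 157 bp in RT7 4-OHT, 156 bp in RT7 EtOH, 82 bp in RT10 4-OHT and 174 bp in RT10 EtOH, and the second RT7 EtOH summit lay 166 bp upstream. None of them fell on the TATAAA itself. The RT7 4-OHT summit was 1 bp from an RT7 EtOH summit, and the RT10 4-OHT summit 92 bp from the RT10 EtOH one.

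Taf8, which encodes the histone-fold partner of TAF10 in TFIID, had summits in EtOH cells of both lines and in neither 4-OHT list. The nearest summit to Taf8 (chromosome 17, 47483364 to 47502321) was 9253 bp away in RT7 4-OHT, against a summit with a score of 5.57 in RT7 EtOH, at position 47502277. It was 9307 bp away in RT10 4-OHT, against a summit with a score of 2.44 in RT10 EtOH, at position 47502251. The 2 EtOH summits were 26 bp apart and lay 14 and 40 bp downstream of the start site. That start site, at 47502291, lies inside the gene, and from the gene's end the summits lay 44 and 70 bp inside. The RT7 EtOH score was at the median of its list, where 150 summits shared it, and 87.7% of the RT10 EtOH summits scored higher than the RT10 one. The distant 4-OHT summits lay inside Ccnd3, a cyclin gene, 54 bp from each other, and the EtOH lists held a summit there too, 198 bp from the 4-OHT summit in RT7 and 194 bp in RT10.

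Taf4, which encodes the histone-fold partner of TAF12, had a summit in RT7 EtOH alone. It lay at position 179977018 of chromosome 2 with a score of 3.83, shared by 145 summits of that list from rank 1811 on. The summit was 372 bp upstream of the start of Taf4 (179912146 to 179976646). It was inside the lncRNA 4921531C22Rik, 165 bp from its end nearest to Taf4, and cannot be assigned to Taf4 alone. The distance to the nearest summit was 732.3 kb in RT7 4-OHT, 48.05 kb in RT10 4-OHT and 48.11 kb in RT10 EtOH. The Taf4 paralogue Taf4b (chromosome 18, 14783201 to 14960424), which is not among the 10 genes, had a summit in both 4-OHT lists and in neither EtOH list. Both summits ranked low, with 88.6% of the RT7 4-OHT list and 80.3% of the RT10 4-OHT list scoring higher. Taf4b had a score of 2.30 in RT7 4-OHT, 374 bp inside the gene, and none nearer than 2041943 bp in RT7 EtOH. In RT10 4-OHT it had 2.88, 97 bp outside the gene, and none nearer than 1070365 bp in RT10 EtOH. The 2 Taf4b summits were 471 bp apart and would not count as the same site under the 250 bp rule. Of the 1718 protein-coding genes with a summit in at least 1 list, 8 (0.466%) had one in both 4-OHT lists and in neither EtOH list, and 203 (11.8%) had one in RT7 EtOH alone.

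Among the SAGA genes, Tada3 had a summit in all 4 lists and the highest score of the 10 genes in 3 of them. It encodes a subunit of the acetyltransferase module, which SAGA shares with the coactivator ATAC. Tada3 (chromosome 6, 113366633 to 113377838) scored 14.8 in RT7 4-OHT (rank 202 of 1379), 28.9 in RT7 EtOH (rank 158 of 2666), 16.8 in RT10 4-OHT (rank 310 of 2188) and 12.1 in RT10 EtOH (rank 725 of 3102). All 4 values were above the upper quartiles of their lists, which lay between 10.2 and 11.6. The RT7 4-OHT summit lay 168 bp downstream of the start site, whereas those of RT7 EtOH, RT10 4-OHT and RT10 EtOH lay 71, 58 and 132 bp upstream. In RT7 the 4-OHT and EtOH summits were 239 bp apart, just inside the 250 bp taken as the same site, and in RT10 they were 74 bp apart. Arpc4, which encodes a subunit of the actin-nucleating Arp2/3 complex, starts 275 bp from Tada3 on the other strand, and the 4 summits lay within 500 bp of its end as well, at 443, 204, 217 and 143 bp, so they cannot be assigned to Tada3 alone.

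Taf6l (chromosome 19, 8774354 to 8786417) encodes the SAGA paralogue of the TFIID subunit TAF6. It had no summit in RT7 4-OHT, the nearest being 15974 bp away at Zbtb3, against a score of 10.4 in RT7 EtOH (rank 694 of 2666). In RT10 Taf6l scored 11.3 in RT10 4-OHT (rank 517 of 2188) and 19.9 in RT10 EtOH (rank 358 of 3102), the highest score of the 10 genes in that list. Its summits lay 24 bp upstream of the start site in RT7 EtOH, 34 bp downstream in RT10 4-OHT and 82 bp downstream in RT10 EtOH. That start site, at 8786316, lies inside the gene, and from the gene's end the summits lay 77, 135 and 183 bp inside. The site at Zbtb3 had a summit in all 4 lists, within 63 bp of the RT7 4-OHT one. Whether the missing RT7 4-OHT summit at Taf6l differs from the presence in RT10 4-OHT beyond the spread between libraries cannot be tested with 1 list per group.

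Usp22 and Eny2 encode parts of the deubiquitinating module of SAGA, USP22 being the ubiquitin protease and ENY2 a small subunit that also serves mRNA export. Usp22 (chromosome 11, 61151781 to 61175059) had no summit within 614.4 kb in RT7 4-OHT, against a score of 7.45 in RT7 EtOH, 110 bp outside the gene. In RT10 the arrangement was the opposite, with a score of 5.96 in RT10 4-OHT, 137 bp outside the gene, and no summit within 92.15 kb in RT10 EtOH. Eny2 (chromosome 15, 44428082 to 44438256) had a summit in neither 4-OHT list, the nearest being 2966 kb away in RT7 4-OHT and 2802 kb in RT10 4-OHT, against scores of 6.49 in RT7 EtOH and 4.93 in RT10 EtOH. The Eny2 summit lay 147 bp inside the gene in RT7 EtOH and 161 bp outside it in RT10 EtOH. These 2 summits were 308 bp apart and would not count as the same site under the 250 bp rule. Nudcd1 overlaps Eny2 by 226 bp, and its end lay 78 and 386 bp from the same summits, so they cannot be assigned to Eny2 alone.

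**Figure D3:**
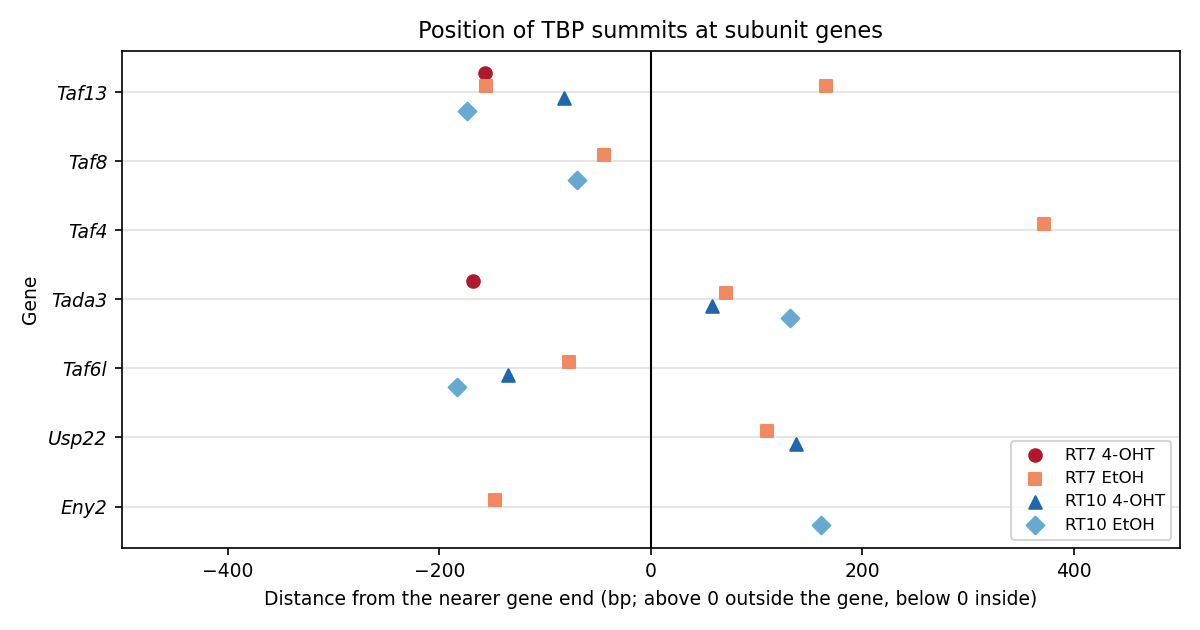
Distance of each TBP summit from the nearer end of the gene, in bp, above 0 outside the gene and below 0 inside it, by list. All summits but that of Taf4 (372 bp) lie within 200 bp of the end, and the 2 EtOH summits of Eny2 lie on opposite sides of it.

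A summit shared with a neighbouring gene was found at 3 of the 7 genes, namely Taf4, Tada3 and Eny2. Of all protein-coding genes with a summit in at least 1 list, 44.8% (42.4 to 47.1, exact 95% interval for counting error) had a summit within 500 bp of another gene's end.

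The next question was which summits of EtOH cells had a partner in 4-OHT cells within 250 bp, here called kept. In RT7 2 of 7 genes were kept (Taf13 and Tada3), against 43.2% of all protein-coding genes with an RT7 EtOH summit. In RT10 3 of 5 were kept (Taf13, Taf6l and Tada3), against 49.4% of all protein-coding genes with an RT10 EtOH summit. In RT7 the count fell to 1 of 7 when partners had to lie within 100 bp, which leaves out Tada3. With the EtOH list shortened to the 4-OHT length it was 1 of 5 with tied scores taken and 1 of 4 without. The shortening removes Taf13 from the EtOH side. The shares over all protein-coding genes given here do not apply to these settings. With partners up to 1000 bp away the reported counts of 2 in RT7 and 3 in RT10 were unchanged. In the other direction, 4-OHT summits at genes without an EtOH summit of the same line were found at 0 of the 3 remaining genes in RT7, against 0.371% of protein-coding genes without an EtOH summit. In RT10 they were found at 1 of the 5 remaining genes, Usp22, against 0.84%.

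The share of protein-coding genes kept rose with the EtOH score, and the subunit genes were spread over the score range. With each EtOH list divided by score into 3 equal parts, 16% of RT7 genes in the lowest part were kept, 28.4% in the middle and 76.2% in the highest. The RT10 shares were 22.6%, 40.5% and 79.1%. In the highest part lay Tada3 and Taf6l in both lines, of which Taf6l in RT7 was the 1 not kept. The middle part held Taf13, which was kept, and Eny2, which was not, in both lines, with Taf8 and Usp22 besides in RT7, neither of them kept. The lowest part held Taf4 in RT7 and Taf8 in RT10, and neither was kept.

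**Figure D4:**
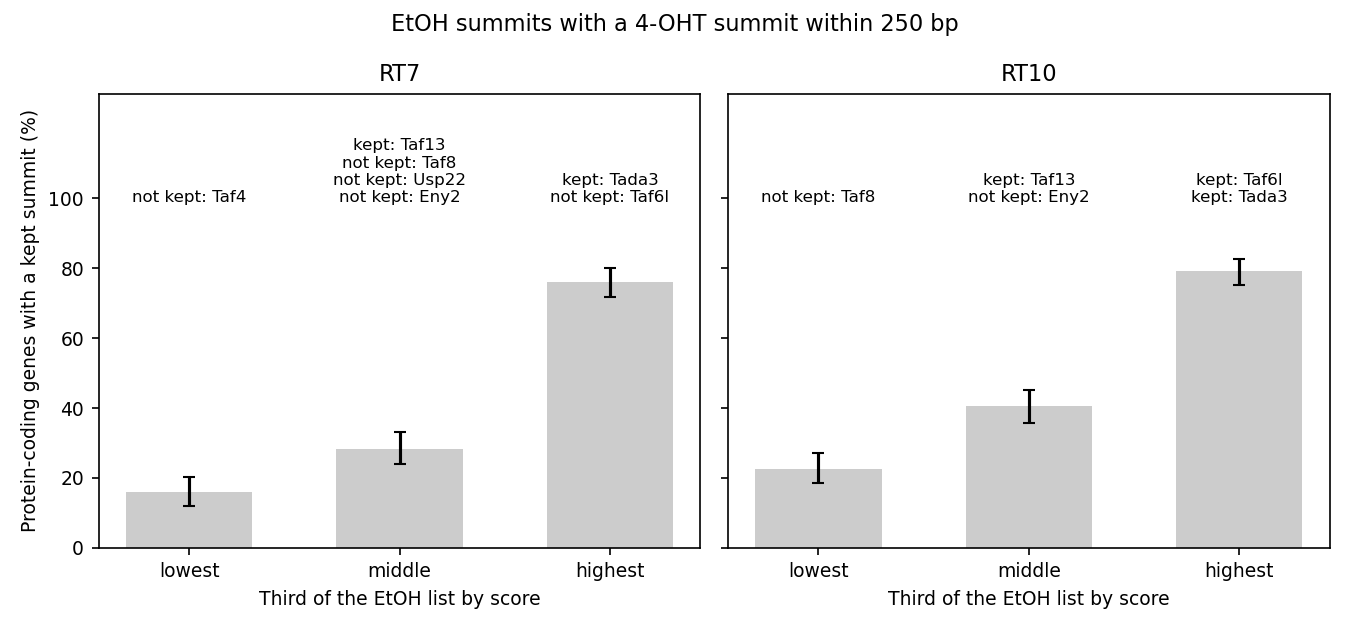
Percentage of protein-coding genes with an EtOH summit whose summit was kept in 4-OHT, by part of the EtOH list by score, with exact 95% binomial intervals, for RT7 and RT10. The shares run from 16% to 76.2% in RT7 and from 22.6% to 79.1% in RT10, and the subunit genes of each part are named above the bars.

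By presence over the 4 lists, Taf13 and Tada3 fell in the pattern with a summit everywhere, which 427 (24.9%) of the 1718 protein-coding genes with any summit had. Taf6l, with a summit in all lists but RT7 4-OHT, was 1 of 182 such genes (10.6%). Taf8 and Eny2, with a summit in both EtOH lists alone, were 2 of 210 (12.2%), and Usp22, in RT10 4-OHT and RT7 EtOH, was 1 of 47 (2.74%). The genes most like each were taken from those of the same pattern, by the mean absolute difference in the percentage of the list scoring higher. For Taf13, 9130019O22Rik differed by 3.01 percentage points and Grk6 by 7.53 over 4 lists. For Tada3 the nearest was Arpc4 at 0, through the shared summits, and then Vamp1 at 2.83. For Taf6l they were Tuba1a, an alpha-tubulin gene, at 2.53 and Ilf2 at 3.80 over 3 lists. For Usp22 they were Atp6v0d1 at 0.398 and Rbbp4 at 2.85 over 2 lists, where 3 genes lay at or below 2.85 and Rbbp4 was taken from the tie by alphabet. For Taf8 they were Paics and Ppat at 3.35 each, and whether those genes share summits with each other was not checked. For Eny2 they were Nudcd1, through the shared summits, and Glul, through tied scores, both at 0. For Taf4, whose score was tied, AW549877 and Adnp were 2 of 27 genes at 0 in the single list.

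The 10 genes were set in their complexes with lists of 17 TFIID, 25 SAGA and 12 ATAC subunit genes and 5 genes of TBP relatives and regulators, 50 genes in all. The 40 genes outside the set added Taf4b in both 4-OHT lists, Kat14 in RT7 EtOH and none in RT10 EtOH. These were 1, 1, 1 and 0 of the 40 in RT7 4-OHT, RT7 EtOH, RT10 4-OHT and RT10 EtOH. Over all protein-coding genes the shares with a summit were 2.74%, 5.32%, 3.87% and 5.96% in that order. The difference was not tested. For TFIID, 2 genes had a summit in RT7 4-OHT (Taf13 and Taf4b) and 3 in RT7 EtOH (Taf13, Taf4 and Taf8), and 2 in RT10 4-OHT (Taf13 and Taf4b) and 2 in RT10 EtOH (Taf13 and Taf8). For SAGA, 1 gene had one in RT7 4-OHT and 4 in RT7 EtOH, and 3 in RT10 4-OHT and 3 in RT10 EtOH, all among the 10 described above. For ATAC, Tada3 was joined by Kat14, the gene of an ATAC acetyltransferase, with a score of 3.83 in RT7 EtOH at a summit that also lay 89 bp from an end of Pet117. Tbpl1, Tbpl2, Btaf1, Dr1 and Drap1, relatives and regulators of TBP, had no summit near an end in any list. The paralogues Taf6, Taf7l, Taf9, Taf9b, Taf5, Taf5l, Kat2a and Kat2b, and Taf1, Taf2, Taf3, Taf11 and Taf12, also had none.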

How the data were processed

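TBP CUT&RUN was done in RT7 and RT10 mouse embryonic stem cells with 4-OHT or EtOH. The submitters' processing notes name cutadapt 4.0, Bowtie2 2.4.4, SAMtools 1.15.1, bedtools, deepTools, MACS2 2.2.7.1 and mm10, without roles or parameters. The authors deposited −log10 q-values at the peak summits of TBP over the IgG of the same line and treatment, as the peak names and values show, with a lowest score of 1.30 (a q of 0.05). Pooling of the 2 libraries of a group was not given in the sources used here. Titles were used for 2 IgG libraries (RT7 EtOH and RT10 4-OHT) whose treatment labels name the other treatment. The labels name yeast spike-in DNA without saying how it was used.

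Gene ends came from RefSeq (GRCm38.p6) and strand and promoter sequence from its promoter table. Ranks give tied scores their lowest rank. Kept means a 4-OHT summit within 250 bp of the EtOH summit. The 10 genes and the lists were chosen with earlier results of these data known. Genes were named if they were members, genes of the complex lists with a summit, neighbours sharing a member's summit, or the 2 genes nearest in rank with the same presence. With 1 list per group no test was run and depth gives no precision. Exact Clopper-Pearson intervals cover counting error only. Matching was tested on simulated summits. The tools were pandas 2.3.3, NumPy 2.4.6, SciPy 1.17.1 and matplotlib 3.10.9 under Python 3.11.15. Alternatives were other distances, a score minimum of 10, equal list lengths, start sites only and summits moved by 10 kb; leaving out tied scores was added after the data were seen.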

Additional observations from a re-analysis of the deposited data

Results flagged for a closer look

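Usp22 was singled out because its summit went opposite ways in the lines. RT7 had none in 4-OHT, against a summit with a score of 7.45 in EtOH, and RT10 had one with a score of 5.96 in 4-OHT, against none in EtOH. The difference between the lines was not tested, as there is 1 list per group.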

How the results depend on the processing

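Counts of genes with a summit are given in the order RT7 4-OHT, RT7 EtOH, RT10 4-OHT and RT10 EtOH. Distances of 250, 1000 and 2000 bp from a gene end left the counts of the 10 genes and of the 50 complex genes within 1.5 times the reported ones. Start sites alone could be used for 7 of the 10 genes, without Taf7, Usp22 and Eny2, and gave 2, 5, 3 and 4, so that setting changed the gene set as well as the rule. A score of at least 10 gave 1, 2, 2 and 2 for the 10 genes, and 1, 2, 2 and 2 for the 50 genes (reported 3, 8, 5 and 5). With that minimum in both lists of a line, 1 of 2 genes was kept in RT7 and 2 of 2 in RT10. At the length of the shortest list, with tied scores taken, the 10 genes gave 2, 5, 3 and 3 and the 50 genes 3, 5, 3 and 3, and with ties left out 2, 4, 3 and 3 and 3, 4, 3 and 3. Summits moved down by 10 kb gave 0 in every list, and moved up 1, 2, 1 and 2, which were Taf13 and Eny2, genes of 10370 and 10175 bp whose own summits then fell on their other end. In RT7 the kept count was 1 of 7 with partners within 100 bp. With the EtOH list at the 4-OHT length it was 1 of 5 with ties and 1 of 4 without. In RT10 no alternative moved the kept count by more than 1.5 times. No paired analysis was possible because the lists carry no replicate numbers. What depth limits cannot be stated, since the files give no read counts.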

Other observations

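Summits deep inside a gene, over 500 bp from both ends, were found at 3 of the 50 complex genes, none of them among the 10. The share over all protein-coding genes was not computed and gene lengths differ, so nothing is read from these counts. Taf5l, the SAGA paralogue gene of TAF5 (chromosome 8, 123996310 to 124021397, GRCm38.p6), had one in all 4 lists, 9158 to 9499 bp from its nearer end. Its scores were 7.26 in RT7 4-OHT, 9.91 in RT7 EtOH, 10.9 in RT10 4-OHT and 16.3 in RT10 EtOH, with another of 1.41 in RT10 EtOH. The RT10 4-OHT summit, at position 124012239, lay more than 250 bp from those of the other lists. It would not count as the same site under the 250 bp rule. Tbpl2, which encodes a TBP relative of oocytes (chromosome 2, 24071366 to 24096595), had one 1674 to 1855 bp from its end, with none in RT7 4-OHT and a score of 2.81 in RT7 EtOH, and scores of 6.33 in RT10 4-OHT and 4.58 in RT10 EtOH. Tada2a, an ATAC subunit gene, had one of 2.95 in RT10 4-OHT, 10208 bp from its end.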
